A study of Mus musculus with 8 samples.

Results

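Cyclins, cyclin-dependent kinases (CDKs), their inhibitors and the E2F transcription factors were followed in livers and liver tumours of mice. The set was chosen by gene symbol: cyclins named Ccn with a letter and at most a number after it, numbered Cdk genes, the Cdkn1 and Cdkn2 inhibitors, numbered E2f genes, Cdc25a, Cdc25b and Cdc25c, Rb1, Rbl1, Rbl2, Tfdp1, Tfdp2, Cks1b and Cks2, with Ccng1 left out. It held 66 of the 19937 genes tested. Cdkn1a, which shares its probe set with another gene, and Ccnb1 also have such symbols and were not analysed here. Total RNA was measured on 8 Affymetrix mouse gene arrays, 1 per sample: 4 normal livers of matched control mice and 4 tumours of mice with liver-specific human c-MYC. The transgene was driven through the CEBPB-LAP promoter under doxycycline control, and tumours were taken at the humane endpoint. Strain, sex, age and whether the control mice carried any part of the transgene were not stated in the labels. Replicate numbers in the labels are not tied to single animals, so p-values measure the spread between these samples, which may be technical.

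A CDK of the cell cycle is active only with a cyclin bound. D-type cyclins with Cdk4 or Cdk6, and then E-type cyclins with Cdk2, phosphorylate the pocket proteins Rb1, Rbl1 and Rbl2, which releases E2F factors to turn on genes of DNA synthesis. A-type and B-type cyclins with Cdk1 or Cdk2 then carry the cell through S phase and mitosis, CDC25 phosphatases switch the kinases on, and the CIP/KIP and INK4 inhibitors hold them back. Most hepatocytes of an adult liver are quiescent and divide only after injury or loss of tissue. Other cyclins and CDKs act on RNA polymerase II or have separate tasks.

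The promoters of 5 genes that rose are shown because they hold words bound by known cell cycle or MYC factors; these 5 were picked after the values were seen. Each run is the 250 bases before the gene start in RefSeq (GRCm38.p6), read 5′ to 3′ on the gene's strand. Capitals mark matches on either strand to an E2F word (TTTCGCGC or TTTGGCGC), to the CHR word TTTGAA of late cell cycle genes, to the CCAAT box (CCAAT), or to the E-box CACGTG, which MYC and MAX can bind. The windows lie at chr10:69352913-69353162 (minus strand) for Cdk1, chr9:70421555-70421804 (minus) for Ccnb2, chr3:89418292-89418541 (minus) for Cks1b, chr9:109875329-109875578 (plus) for Cdc25a and chr10:127063285-127063534 (plus) for Cdk4.
Cdk1: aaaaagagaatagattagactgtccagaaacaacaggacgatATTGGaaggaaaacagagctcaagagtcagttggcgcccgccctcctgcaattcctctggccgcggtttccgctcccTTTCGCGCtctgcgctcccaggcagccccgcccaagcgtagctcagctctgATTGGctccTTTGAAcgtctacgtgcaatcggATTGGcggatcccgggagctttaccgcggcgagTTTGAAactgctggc
Ccnb2: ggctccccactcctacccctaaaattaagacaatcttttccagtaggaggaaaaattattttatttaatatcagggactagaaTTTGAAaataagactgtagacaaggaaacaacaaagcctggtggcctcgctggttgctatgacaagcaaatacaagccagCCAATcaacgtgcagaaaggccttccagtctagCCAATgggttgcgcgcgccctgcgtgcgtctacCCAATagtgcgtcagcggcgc
Cks1b: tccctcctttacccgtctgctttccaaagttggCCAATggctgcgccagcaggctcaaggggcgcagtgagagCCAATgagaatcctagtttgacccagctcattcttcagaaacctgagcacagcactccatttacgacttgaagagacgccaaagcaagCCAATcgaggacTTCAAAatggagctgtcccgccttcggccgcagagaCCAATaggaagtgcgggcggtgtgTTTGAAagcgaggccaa
Cdc25a: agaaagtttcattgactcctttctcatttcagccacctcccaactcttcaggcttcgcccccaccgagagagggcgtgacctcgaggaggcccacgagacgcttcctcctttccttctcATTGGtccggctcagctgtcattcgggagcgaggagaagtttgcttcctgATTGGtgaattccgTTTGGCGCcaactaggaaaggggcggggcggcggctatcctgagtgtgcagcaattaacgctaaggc
Cdk4: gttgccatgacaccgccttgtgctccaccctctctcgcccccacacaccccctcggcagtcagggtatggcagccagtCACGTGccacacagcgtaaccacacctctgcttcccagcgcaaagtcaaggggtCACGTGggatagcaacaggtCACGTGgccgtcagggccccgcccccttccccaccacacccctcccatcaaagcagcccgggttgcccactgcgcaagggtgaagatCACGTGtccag

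Cdk1 held 1 E2F word, 2 CHR words and 3 CCAAT boxes, whereas Cdk4 held 4 E-boxes and none of the other words. RefSeq promoters were at hand for 51 of the 66 genes, and a gene was counted once if any of its windows held a word. The 15 without were Ccna2, Ccnd1, Ccnd2, Ccne2, Ccnh, Ccny, Cdc25c, Cdk3, Cdk5, Cdk17, Cdk19, Cdkn1c, E2f4, E2f5 and Rb1. Whether these hold any of the words was not examined. An E2F word stood before 4 of the 51 (7.84%), namely Cdc25a, Cdk1, Rbl1 and Tfdp1, against 0.759% of all 27025 genes of the promoter table. An E-box stood before 8 (15.7% against 6.86%), which were Cdk4, Cdk6, Cdk7, Cdk8, Cdk18, Cdk20, E2f3 and Tfdp1. CHR words were found before 11 (21.6% against 18.3%) and CCAAT boxes before 25 (49.0% against 37.5%). By the test described next, 24 of the 51 genes were higher in tumours and 4 lower. Among genes with an E2F word 4 of 4 were higher, with an E-box 6 of 8, with a CHR word 6 of 11 (and 2 lower, Ccni and Rbl2), and with a CCAAT box 12 of 25 (and 1 lower, Ccnl2). A match is a description of the sequence and shows no binding, and these shares were not tested.

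In the tumours many genes of the core engine of cell division were higher, led by cyclin A2, Cdk1 and cyclin B2, while cyclin D1 was lower. Changes are differences of log2 values, tumours minus controls, from limma fitted over all 19937 genes, with SE and with p-values adjusted over all of them by Benjamini and Hochberg. A gene was called at an adjusted p under 0.05. Of the 66 genes 37 were called, 30 higher and 7 lower (45.5% and 10.6%), where 28.9% of all genes tested were called, 16.2% higher and 12.7% lower. A rise of at least 2-fold was called for 15 (22.7%, against 5.54% of all genes) and a fall of that size for Ccnd1 alone of the 66 (against 4.68% of all genes). Of the 15, E2f3 and Cdkn1b rose by less than 2-fold in a second probe set (log2 changes 0.22 and 0.37). The other probe sets of Cks2 and Tfdp1 rose by more than 2-fold. The 4 tumours did not overlap the 4 controls for 39 genes, 31 with the tumours above and 8 below (47.0% and 12.1%), where this held for 30.2% of all genes, 16.3% above and 13.9% below. The median change was 0.28, and -0.04 over all genes tested. Within groups the genes varied by a median SD of 0.21 among controls and 0.18 among tumours, against 0.16 and 0.17 over all genes.

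**Figure D1:**
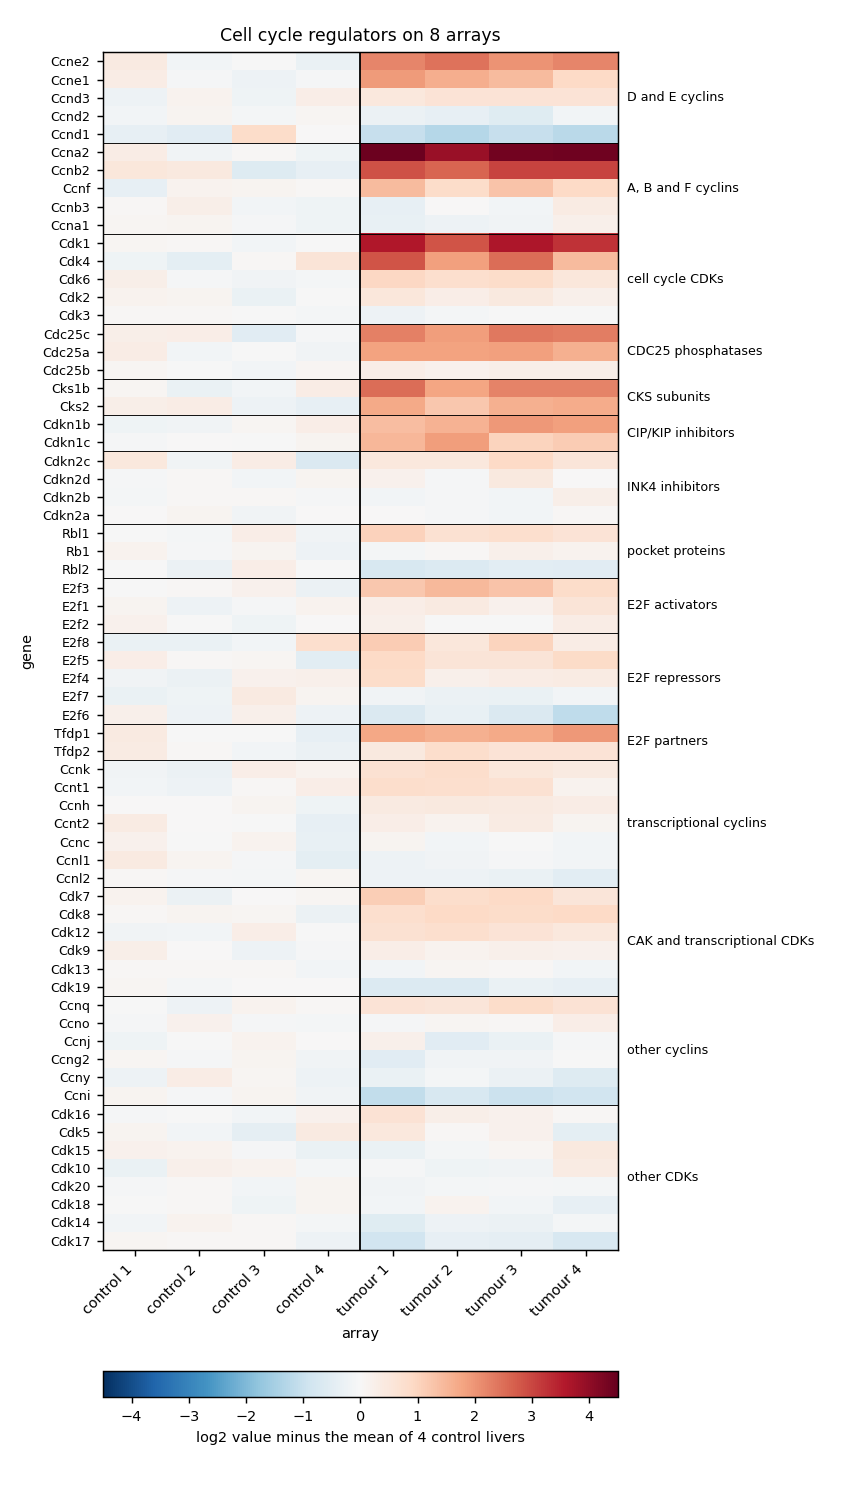
Log2 value of each of the 66 genes on each of the 8 arrays, minus the mean of the 4 control livers, with genes ordered by role and red for higher values. Ccna2, Cdk1 and Ccnb2 are the darkest red in all 4 tumours, Ccnd1 and Ccni are blue in all 4, and the CDKs at the bottom show pale colours throughout.

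Of the 20 D, E, A, B and F cyclins, cell cycle CDKs, CDC25 phosphatases and CKS subunits, 14 were higher and 1 lower, with a median change of 1.29. The 13 cyclins and CDKs that act in transcription had 6 higher and 2 lower and a median of 0.24, with no change of 2-fold. In the 14 other cyclins and CDKs 1 was higher and 2 were lower, with a median of -0.11. Of all genes tested 16.2% were higher and 12.7% lower. The share of higher genes among the other cyclins and CDKs lay under that general rate. The shares of lower genes in that family and in the transcriptional one were little above the general rate. Counts by role given below stand beside the same 2 rates. Differences between these families, or from all genes, were not tested. The 95th percentile of the values of 1027 olfactory receptor genes was 6.21 on the log2 scale. These receptors were assumed to be mostly unused in liver, and 6.21 serves here as a background level. Both group means of Ccna1, Ccnb3, Ccno, Cdk3, Cdk14, Cdk15 and Cdkn2a lay at or under it, so these 7 genes were not shown to be above background. Where only the control mean lay there, the fold is a limit and not an exact size.

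**Figure D2:**
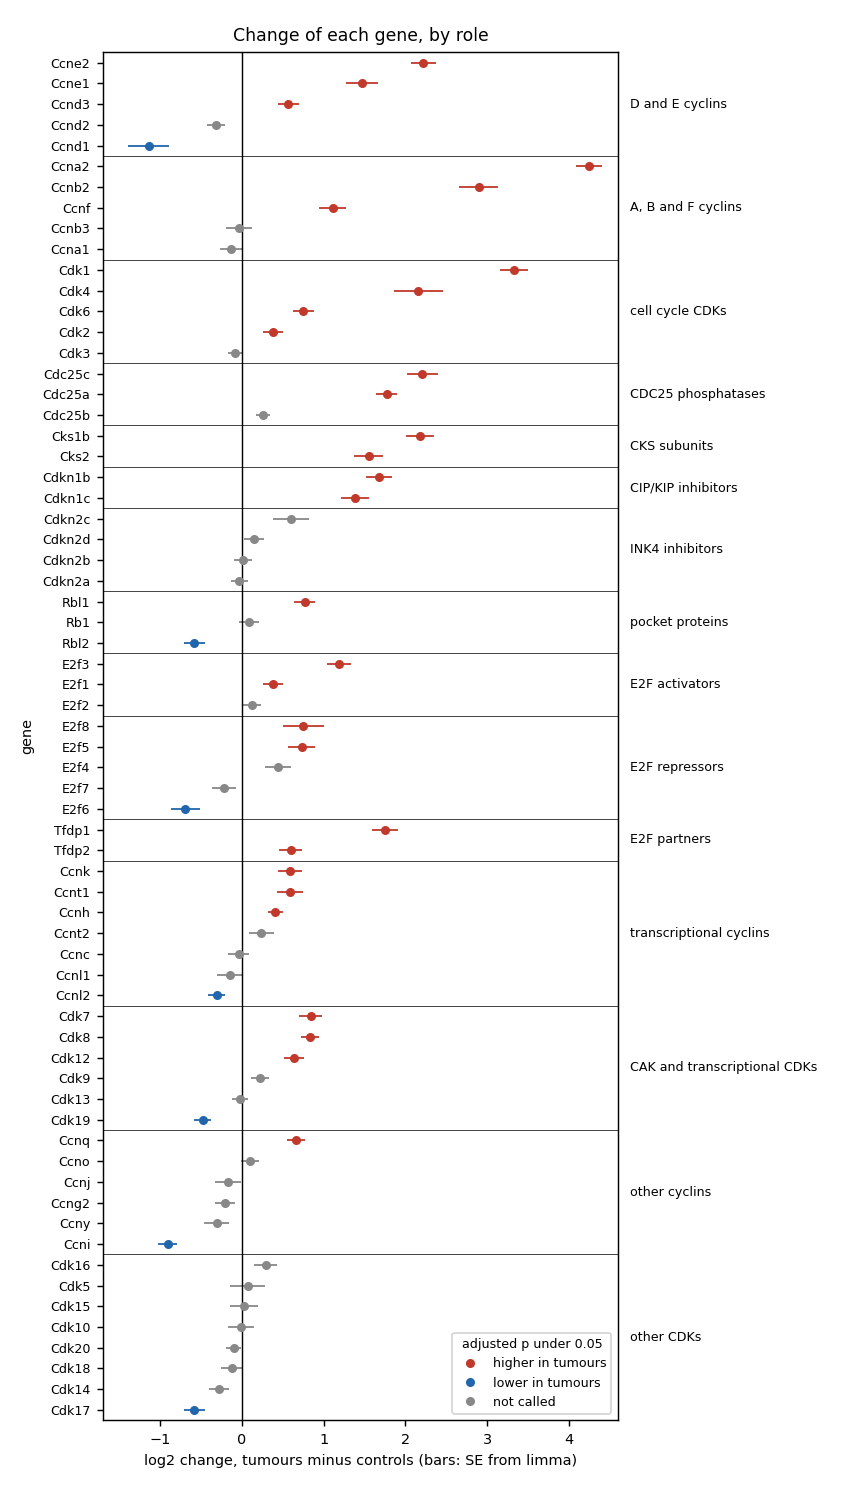
Log2 change of each gene, tumours minus controls, with SE bars from limma, grouped by role; red and blue mark genes past an adjusted p of 0.05. Changes run from -1.14 for Ccnd1 to 4.25 for Ccna2, and every cell cycle CDK except Cdk3 is red.

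D-type cyclins, the first to form complexes when a cell leaves quiescence, moved apart. Ccnd1 read 7.62, 7.48, 8.83 and 8.02 in controls 1 to 4 and 6.97, 6.72, 6.95 and 6.76 in tumours 1 to 4. Control 3 stood highest, and all 4 tumours lay below all 4 controls. Ccnd1 changed by -1.14 (SE 0.25, adjusted p = 0.00561), a 2.21-fold fall; without control 3 it was -0.86 (adjusted p = 0.00159). Ccnd3 ranged from 6.72 to 7.25 in controls and from 7.45 to 7.58 in tumours, without overlap, and rose by 0.57 (SE 0.13, adjusted p = 0.00651). Ccnd2 lay at 7.28 to 7.5 in controls and 6.86 to 7.26 in tumours, also without overlap, but its change of -0.32 (SE 0.11, adjusted p = 0.0538) did not pass. The Ccnd2 change passed with quantile normalisation (0.038), without the dimmest genes (0.0408), with array weights (0.0178) and without tumour 4 (0.0251).

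E-type cyclins, the partners of Cdk2 at the start of S phase, both rose. The 4 controls gave 6.92, 6.39, 6.5 and 6.21 for Ccne2, and the 4 tumours 8.72, 8.94, 8.52 and 8.71. The groups were far apart. The Ccne2 change was 2.22 (SE 0.15, adjusted p = 2.31e-06), or 4.65-fold. In controls Ccne1 stood at 6.67, 6.3, 6.13 and 6.28, and in tumours at 8.25, 7.97, 7.79 and 7.23. Tumour 1 was highest and tumour 4 lowest, still above every control. In log2 units Ccne1 changed by 1.47 (SE 0.20, adjusted p = 0.000283), or 2.76-fold. The rise of Ccne2 exceeded that of Ccne1 by 0.75.

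Cyclins of S phase and mitosis held the largest change of the set, that of Ccna2. Values of Ccna2 were 5.9, 5.39, 5.61 and 5.36 in controls and 9.98, 9.44, 9.91 and 9.94 in tumours. The lowest tumour stood 3.54 above the highest control. For Ccna2 the change was 4.25 (SE 0.16, adjusted p = 4.39e-08), 19.1-fold, at percentile 99.9 of the changes of all genes tested; the control mean was under the background level, so the fold is a limit. For Ccnb2 the control arrays held 6.98, 6.9, 5.89 and 6.1 and the tumour arrays 9.35, 9.1, 9.52 and 9.51. Controls 1 and 2 read higher than controls 3 and 4, and no tumour overlapped them. The fit gave Ccnb2 a change of 2.9 (SE 0.24, adjusted p = 8.22e-06), or 7.47-fold. Control livers showed 5.18, 5.72, 5.69 and 5.63 for Ccnf, and tumours 7.0, 6.38, 6.84 and 6.46. Cyclin F, part of a ubiquitin ligase rather than a CDK partner, was above every control in all 4 tumours. Ccnf changed by 1.11 (SE 0.17, adjusted p = 0.000569), a 2.16-fold limit. The germline cyclins Ccna1 (-0.13, adjusted p = 0.561) and Ccnb3 (-0.03, adjusted p = 0.918) were not called and were not above background in either group.

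**Figure D3:**
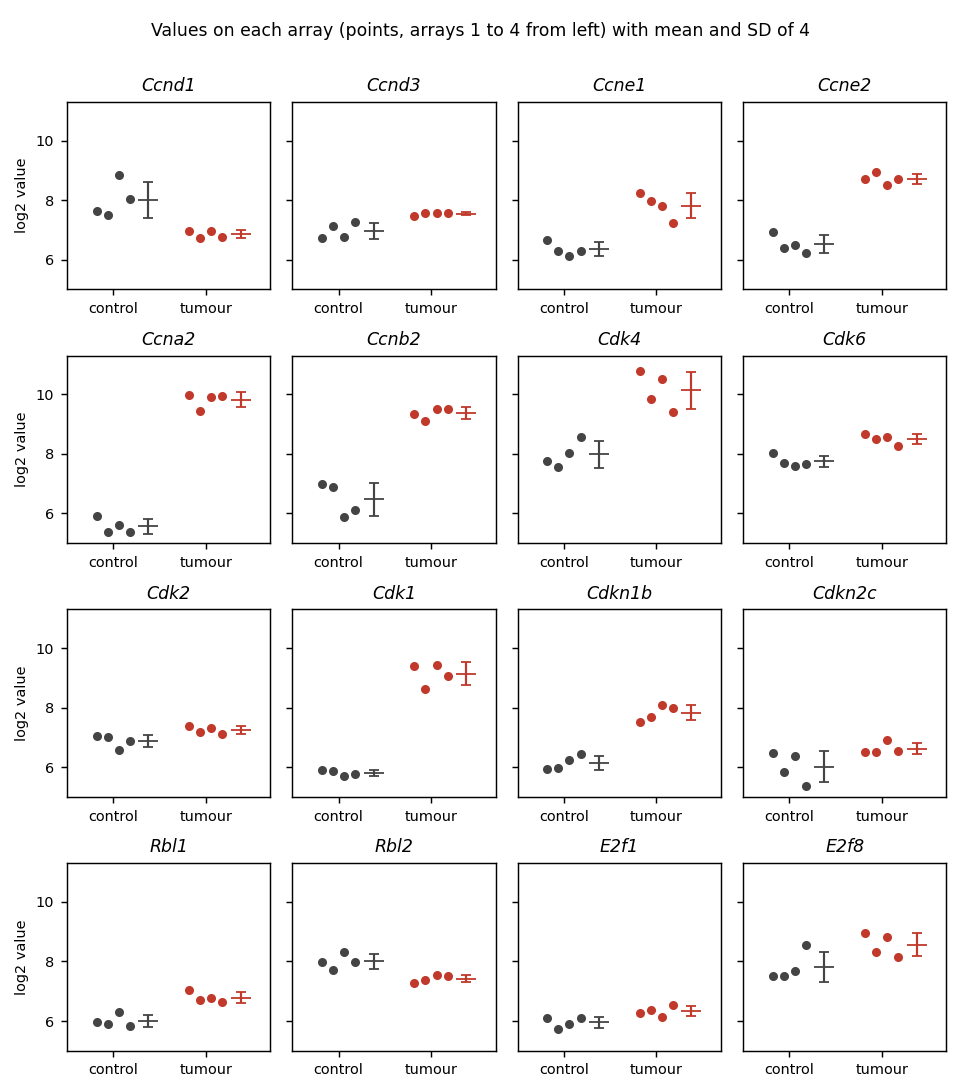
Log2 values of 16 genes on each array, with points for arrays 1 to 4 from left to right in each group and bars for the mean and SD of 4 arrays. Tumours and controls do not overlap for any of these genes except E2f8, in which control 4 at 8.55 lies among the tumours.

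Among the cell cycle CDKs, 4 of 5 rose. On the control arrays Cdk1 measured 5.91, 5.86, 5.69 and 5.78, on the tumour arrays 9.41, 8.63, 9.45 and 9.06. Cdk1 is the kinase of mitosis, and its lowest tumour was 2.72 above its highest control. The Cdk1 change was 3.33 (SE 0.17, adjusted p = 3.13e-07), a limit of 10.0-fold from a control mean of 5.81. Cdk4 values came to 7.77, 7.55, 8.02 and 8.56 in controls, against 10.8, 9.83, 10.5 and 9.41 in tumours. Tumours 1 and 3 were high and tumours 2 and 4 lower, and control 4 was the highest control, without overlap. In log2 units Cdk4 changed by 2.16 (SE 0.30, adjusted p = 0.000338), or 4.46-fold. Cdk6 read 8.03, 7.69, 7.6 and 7.67 in controls 1 to 4 and 8.67, 8.51, 8.56 and 8.26 in tumours 1 to 4. Cdk6, the other partner of D cyclins, did not overlap between groups either. For Cdk6 the change was 0.75 (SE 0.13, adjusted p = 0.0011), or 1.68-fold.

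The 4 controls gave 7.04, 7.02, 6.59 and 6.87 for Cdk2, and the 4 tumours 7.4, 7.19, 7.31 and 7.12. Cdk2, the partner of cyclins E and A, moved little, with 0.08 between its highest control and its lowest tumour. The fit gave Cdk2 a change of 0.38 (SE 0.12, adjusted p = 0.042). The Cdk2 call was lost with quantile normalisation (0.0565), with the replicate number as a block (0.0713), and without control 3 (0.105), control 4 (0.0787), tumour 1 (0.115), tumour 2 (0.0659) or tumour 3 (0.102). Cdk3 was not above background and changed by -0.08 (adjusted p = 0.594).

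Of the 3 CDC25 phosphatases, which activate CDKs, 2 were higher, and so were both CKS subunits. In controls Cdc25a stood at 6.84, 6.37, 6.48 and 6.35, and in tumours at 8.33, 8.31, 8.36 and 8.11. Cdc25a, the phosphatase that activates CDKs at entry into S phase, was tightly grouped in tumours. Cdc25a changed by 1.77 (SE 0.13, adjusted p = 2.87e-06), or 3.40-fold. Values of Cdc25c were 5.83, 5.87, 5.05 and 5.52 in controls and 7.83, 7.44, 7.94 and 7.87 in tumours. Cdc25c, which acts at entry into mitosis, started from a control mean of 5.57 under the background level. The Cdc25c change was 2.21 (SE 0.19, adjusted p = 9.21e-06), a limit of 4.62-fold. Cdc25b lay at 5.90 to 6.14 in controls and 6.24 to 6.34 in tumours and changed by 0.26 (SE 0.09, adjusted p = 0.0529). That change passed with quantile normalisation (0.0395), centred arrays (0.0442), the dimmest genes left out (0.0375), an intensity trend with robust variance (0.0415) and array weights (0.0295).

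For Cks1b the control arrays held 7.97, 7.58, 7.76 and 8.23 and the tumour arrays 10.38, 9.67, 10.11 and 10.12. Cks1b, a small CDK subunit that also helps the ligase protein Skp2 recognise p27, had no overlap between groups. In log2 units Cks1b changed by 2.18 (SE 0.17, adjusted p = 6.51e-06), or 4.55-fold. Control livers showed 8.79, 8.89, 8.3 and 8.17 for Cks2, and tumours 10.23, 9.76, 10.13 and 10.21. Its paralogue was likewise higher in all 4 tumours. For Cks2 the change was 1.55 (SE 0.18, adjusted p = 8.37e-05), or 2.92-fold, and the other 2 probe sets annotated to Cks2 gave 1.68 and 1.74. Probe sets of such small genes can share sequence with near-identical copies, so the split between copies is uncertain.

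The CIP/KIP inhibitors Cdkn1b and Cdkn1c rose, and the INK4 inhibitors were not called. Cdkn1a, of the CIP/KIP family too, was not analysed, as given at the start. On the control arrays Cdkn1b measured 5.95, 5.98, 6.24 and 6.45, on the tumour arrays 7.53, 7.7, 8.09 and 8.0. Cdkn1b encodes p27, which blocks cyclin E and A complexes with Cdk2, and its groups did not overlap. The fit gave Cdkn1b a change of 1.68 (SE 0.16, adjusted p = 1.86e-05), or 3.20-fold. The control mean of 6.15 lay under the background level, so this fold is a limit for the probe set used and not for the gene. A second Cdkn1b probe set, with the same mean over the 8 arrays (6.99), read 6.71 to 6.88 in controls and 7.03 to 7.31 in tumours and rose by only 0.37 (SE 0.10, adjusted p = 0.0149 over 21640 probe sets). The direction was shared and the size was not: the mean of both probe sets changed by 1.02. Cdkn1c values came to 6.9, 6.97, 6.95 and 7.08 in controls, against 8.47, 8.86, 7.96 and 8.13 in tumours. Cdkn1c, an imprinted gene that encodes p57, was highest in tumour 2 and lowest in tumour 3. Cdkn1c changed by 1.38 (SE 0.17, adjusted p = 0.000159), or 2.61-fold.

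Cdkn2c read 6.48, 5.85, 6.37 and 5.37 in controls 1 to 4 and 6.51, 6.51, 6.9 and 6.55 in tumours 1 to 4. Cdkn2c encodes p18, an inhibitor of Cdk4 and Cdk6; all tumours were above all controls, with 0.03 between control 1 and the lowest tumours. The Cdkn2c change was 0.6 (SE 0.22, adjusted p = 0.0716), not past the threshold, and the controls alone spanned 5.37 to 6.48. It passed with array weights (0.0464), with the replicate block (0.0485), without control 1 (0.0273) and without control 3 (0.0452). The 4 controls gave 6.09, 6.17, 5.89 and 6.08 for Cdkn2a, and the 4 tumours 6.08, 6.01, 5.94 and 6.1. Cdkn2a, the p16 and p19Arf gene, overlapped between groups and was not above background. In log2 units Cdkn2a changed by -0.03 (SE 0.10, adjusted p = 0.876), with a 95% interval of -0.24 to 0.18. Cdkn2b (0.01, adjusted p = 0.980) and Cdkn2d (0.15, adjusted p = 0.434) overlapped between groups as well.

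Pocket proteins, which CDKs phosphorylate to free the E2Fs, moved in different directions. In controls Rb1 stood at 7.87, 7.67, 7.86 and 7.49, and in tumours at 7.64, 7.79, 7.94 and 7.88. The groups overlapped. For Rb1 the change was 0.09 (SE 0.12, adjusted p = 0.643), with a 95% interval of -0.17 to 0.34. Values of Rbl1 were 5.98, 5.91, 6.29 and 5.84 in controls and 7.03, 6.69, 6.76 and 6.63 in tumours. Rbl1 encodes p107, and all tumours lay above all controls. The fit gave Rbl1 a change of 0.77 (SE 0.13, adjusted p = 0.00101), a limit of 1.71-fold. For Rbl2 the control arrays held 7.99, 7.72, 8.31 and 7.99 and the tumour arrays 7.28, 7.37, 7.53 and 7.5. Rbl2 encodes p130, the pocket protein of quiescent cells, and all tumours lay below all controls. Rbl2 changed by -0.58 (SE 0.13, adjusted p = 0.00582), a 1.5-fold fall.

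Of the 10 E2F and DP genes 6 were higher and 1 lower. Control livers showed 6.59, 6.66, 6.8 and 6.34 for E2f3, and tumours 7.8, 8.07, 7.87 and 7.41. E2f3, an activator, was higher in all 4 tumours. The E2f3 change was 1.19 (SE 0.15, adjusted p = 0.000169), or 2.28-fold, but its second probe set changed by 0.22 (SE 0.11, adjusted p = 0.182 over 21640 probe sets). On the control arrays E2f1 measured 6.1, 5.73, 5.9 and 6.11, on the tumour arrays 6.27, 6.38, 6.15 and 6.55. E2f1, the best known activator, stood close to the background level, with 0.04 between its highest control and its lowest tumour. In log2 units E2f1 changed by 0.38 (SE 0.12, adjusted p = 0.041). That call was lost with array weights (0.0596), with the replicate block (0.0581), and without control 2 (0.11), control 3 (0.0915), tumour 1 (0.0658), tumour 2 (0.0916) or tumour 4 (0.0873). E2f2 changed by 0.12 (SE 0.12, adjusted p = 0.533) with overlapping groups.

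Among the E2Fs known as repressors, 2 of 5 rose and 1 fell. E2f5 values came to 6.92, 6.68, 6.69 and 6.15 in controls, against 7.51, 7.2, 7.18 and 7.48 in tumours. E2f5, which works with p130 and p107, was higher in every tumour. For E2f5 the change was 0.73 (SE 0.16, adjusted p = 0.00599). E2f8 read 7.5, 7.51, 7.69 and 8.55 in controls 1 to 4 and 8.95, 8.33, 8.82 and 8.16 in tumours 1 to 4. E2f8, an atypical E2F of liver polyploidy, overlapped between groups through control 4. The fit gave E2f8 a change of 0.75 (SE 0.25, adjusted p = 0.0466). Without control 4 its change was 1.00 (adjusted p = 0.00343), and the call was lost with quantile normalisation (0.056), centred arrays (0.0638), the replicate block (0.09), and without control 1 (0.116), control 2 (0.126), control 3 (0.0956), tumour 1 (0.129), tumour 2 (0.0555) or tumour 3 (0.121).

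The 4 controls gave 7.96, 7.51, 7.95 and 7.49 for E2f6, and the 4 tumours 7.08, 7.41, 7.07 and 6.6. E2f6, a repressor that binds no pocket protein, was the lower one, with 0.08 between tumour 2 and the lowest control. E2f6 changed by -0.69 (SE 0.18, adjusted p = 0.0148). In controls E2f4 stood at 6.76, 6.64, 7.12 and 7.15, and in tumours at 7.75, 7.15, 7.24 and 7.29. E2f4, the main partner of p130 in quiescence, had all tumours above all controls, though tumour 2 and control 4 both round to 7.15. The E2f4 change was 0.44 (SE 0.16, adjusted p = 0.0673), not past the threshold. E2f7, the close relative of E2f8, changed by -0.22 (SE 0.15, adjusted p = 0.330).

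Both DP partners, without which most E2Fs bind DNA poorly, rose. Values of Tfdp1 were 8.46, 8.03, 8.02 and 7.66 in controls and 9.77, 9.63, 9.76 and 10.0 in tumours. The lowest tumour was 1.17 above the highest control. In log2 units Tfdp1 changed by 1.75 (SE 0.16, adjusted p = 1.59e-05), or 3.36-fold, and a second probe set gave 1.77 (SE 0.09). For Tfdp2 the control arrays held 9.5, 9.17, 9.01 and 8.85 and the tumour arrays 9.56, 9.91, 9.73 and 9.74. Control 1 at 9.50 was only just under the lowest tumour. For Tfdp2 the change was 0.6 (SE 0.14, adjusted p = 0.00862), or 1.52-fold.

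Cyclins and CDKs of transcription changed by less than 2-fold. Control livers showed 7.85, 7.45, 7.73 and 7.78 for Cdk7, and tumours 8.82, 8.5, 8.6 and 8.25. Cdk7, the kinase of TFIIH that also activates other CDKs, rose in the probe set used. The fit gave Cdk7 a change of 0.84 (SE 0.14, adjusted p = 0.000899); its second probe set changed by 0.09 (adjusted p = 0.693). On the control arrays Ccnh measured 8.62, 8.63, 8.75 and 8.43, on the tumour arrays 9.03, 9.04, 9.02 and 8.96. Ccnh, the cyclin of Cdk7, rose with little spread among tumours. Ccnh changed by 0.41 (SE 0.09, adjusted p = 0.00806). Cdk8 values came to 9.87, 9.91, 9.9 and 9.54 in controls, against 10.54, 10.69, 10.61 and 10.69 in tumours. Cdk8, a kinase of the Mediator complex, was higher in all 4 tumours. The Cdk8 change was 0.83 (SE 0.11, adjusted p = 0.000194). Cdk19 read 7.78, 7.61, 7.7 and 7.71 in controls 1 to 4 and 7.08, 7.09, 7.39 and 7.33 in tumours 1 to 4. Its close paralogue Cdk19 was lower in all 4. In log2 units Cdk19 changed by -0.48 (SE 0.10, adjusted p = 0.00501). Ccnc, the cyclin of both, changed by -0.04 (SE 0.13, adjusted p = 0.864).

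The 4 controls gave 8.55, 8.59, 9.0 and 8.7 for Cdk12, and the 4 tumours 9.41, 9.46, 9.34 and 9.19. Cdk12 phosphorylates RNA polymerase II in elongation and was higher in every tumour. For Cdk12 the change was 0.64 (SE 0.12, adjusted p = 0.00207); a second probe set changed by 0.08 (SE 0.22), and the mean of both by 0.36 (adjusted p = 0.110). In controls Ccnk stood at 8.69, 8.56, 9.14 and 8.99, and in tumours at 9.51, 9.64, 9.34 and 9.23. Its cyclin, Ccnk, was higher in all 4 tumours too. The fit gave Ccnk a change of 0.59 (SE 0.15, adjusted p = 0.0117). Values of Ccnt1 were 8.24, 8.12, 8.4 and 8.65 in controls and 9.14, 9.12, 9.02 and 8.52 in tumours. Ccnt1 belongs to the elongation factor P-TEFb, and its groups overlapped between tumour 4 and control 4. Ccnt1 changed by 0.59 (SE 0.16, adjusted p = 0.0188). The Ccnt1 call was lost with the replicate block (0.0605) and without control 2 (0.0575), tumour 1 (0.0573), tumour 2 (0.0543) or tumour 3 (0.0517). Cdk9, the kinase of P-TEFb, changed by 0.22 (SE 0.11, adjusted p = 0.187) and Ccnt2 by 0.24 (SE 0.15, adjusted p = 0.279).

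For Ccnl2 the control arrays held 8.94, 8.82, 8.77 and 8.96 and the tumour arrays 8.65, 8.63, 8.56 and 8.39. Ccnl2 is a cyclin tied to RNA splicing. The Ccnl2 change was -0.31 (SE 0.10, adjusted p = 0.0344). That call was lost with centred arrays (0.0648), an intensity trend with robust variance (0.0602), the replicate block (0.0929), and without control 1 (0.083), control 2 (0.0525), control 4 (0.0857), tumour 2 (0.0501), tumour 3 (0.0787) or tumour 4 (0.0631). Ccnl1, of the same family, changed by -0.15 (SE 0.16, adjusted p = 0.542) and Cdk13 by -0.02 (SE 0.10, adjusted p = 0.891).

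Of the remaining 6 cyclins and 8 CDKs few changed. Control livers showed 10.1, 9.9, 10.09 and 9.8 for Ccni, and tumours 8.85, 9.26, 9.01 and 9.12. Ccni, an atypical cyclin, was lower in all 4 tumours. In log2 units Ccni changed by -0.91 (SE 0.12, adjusted p = 0.000178), a 1.88-fold fall, and its second probe set gave -0.73 (SE 0.09). On the control arrays Ccnq measured 6.1, 5.89, 6.28 and 6.16, on the tumour arrays 6.72, 6.66, 6.92 and 6.75. Ccnq, the cyclin of Cdk10, was higher in all 4. For Ccnq the change was 0.66 (SE 0.11, adjusted p = 0.00106). Cdk17 values came to 7.84, 7.82, 7.83 and 7.54 in controls, against 6.9, 7.39, 7.36 and 7.05 in tumours. Cdk17, of the PCTAIRE kinase family, was lower. The fit gave Cdk17 a change of -0.58 (SE 0.13, adjusted p = 0.00712). Its relatives Cdk16 and Cdk18 changed by 0.29 (adjusted p = 0.148) and -0.12 (adjusted p = 0.562). The other 9 genes, namely Ccng2, Ccnj, Ccno, Ccny, Cdk5, Cdk10, Cdk14, Cdk15 and Cdk20, changed by -0.31 to 0.10 with overlapping groups and were not called.

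**Figure D4:**
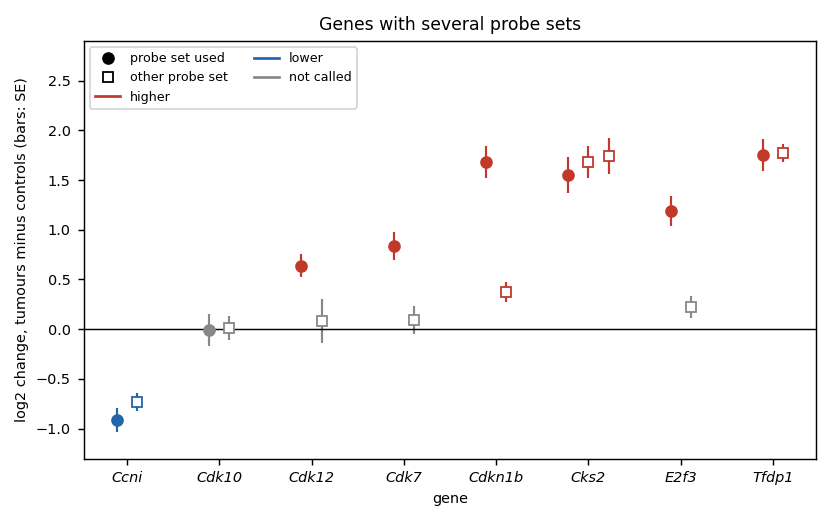
Log2 change with SE for every probe set annotated to 1 of the 8 genes with several, filled circles for the probe set used (highest mean over the 8 arrays) and open squares for the others. The probe sets of Ccni, Cks2 and Tfdp1 lie together, while those of Cdkn1b, E2f3, Cdk7 and Cdk12 differ in size.

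Family partners were compared directly in 10 pairs, by the difference of their log2 values on each array and an exact two-sided permutation of the 8 arrays, whose smallest possible p is 0.0286. For 6 pairs the groups did not overlap and p was 0.0286, or 0.0476 adjusted over the 10. With the dimmest 33.3% of genes left out, the 5 of these pairs that could still be compared had an adjusted p of 0.0514, no longer past the threshold. Their differences were the same in that setting. The adjusted p moved only because the pair of Ccna1 and Ccna2 dropped out of the adjustment. The pair of Ccna2 and Ccna1 (4.38) sets Ccna2 against a gene not shown to be above background, so its difference is no measure of how Ccna1 changed. Cdk1 rose by 2.95 more than Cdk2, Cdk4 by 1.41 more than Cdk6, Rbl1 by 1.36 more than Rbl2, and Tfdp1 by 1.14 more than Tfdp2. The sixth was Ccne2 over Ccne1, given above. Control means of Cdk1 and Rbl1 were under the background level, so those differences are limits. Adjusted p-values were 0.0816 for Ccnd1 and Ccnd2 (difference -0.82), 0.143 for Cks1b and Cks2 (0.64), 0.317 for Cdkn2c and Cdkn2d (0.45), and 0.83 for E2f1 and E2f4 (-0.06).

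Most genes of 4 lists that act on or downstream of the set were higher. Of 12 kinases and phosphatases acting on CDKs 8 were higher and 1 lower, with a median change of 1.25. The checkpoint kinase Chek1 rose by 3.18 (SE 0.19), Mastl, which restrains the phosphatase opposing Cdk1, by 2.33 (SE 0.24) and the mitotic kinase Plk1 by 2.22 (SE 0.26) (control means under the background level for these 3, so the changes are limits). The gene called lower was the phosphatase Cdc14a, but its groups overlapped and both its means, 6.17 in controls and 5.62 in tumours, lay under the background level, so no size is given. Among 13 ubiquitin ligase parts 8 were higher and 1 lower, with a median of 0.65. Ube2c, a conjugating enzyme of the anaphase-promoting complex, rose by 2.70 (SE 0.25), its inhibitor Fbxo5 by 2.60 (SE 0.18) and Dtl, which targets Cdt1, by 2.49 (SE 0.14). Fbxo4, reported to target cyclin D1, fell by 1.22 (SE 0.18). Skp2, the ligase part that recognises p27, rose by 2.10 (SE 0.17).

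Of 8 genes of the MuvB core and its partners, which bind CHR words, 5 were higher and none lower, with a median of 1.00. Mybl1 rose by 2.21 (SE 0.10), Lin9 by 1.94 (SE 0.20) and Foxm1, which drives mitotic genes, by 1.82 (SE 0.18). Of 17 textbook E2F targets 16 were higher and none lower, with a median of 1.69; Mcm6 of the replicative helicase rose by 4.24 (SE 0.18), the proliferation marker Mki67 by 3.98 (SE 0.17) and Rrm2 of ribonucleotide reductase by 3.13 (SE 0.15). Control means of Dtl, Mybl1, Lin9, Mcm6 and Mki67 were also under the background level, so their changes are limits. These lists are described by counts and medians only, beside the 16.2% of all genes that were higher.

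**Figure D5:**
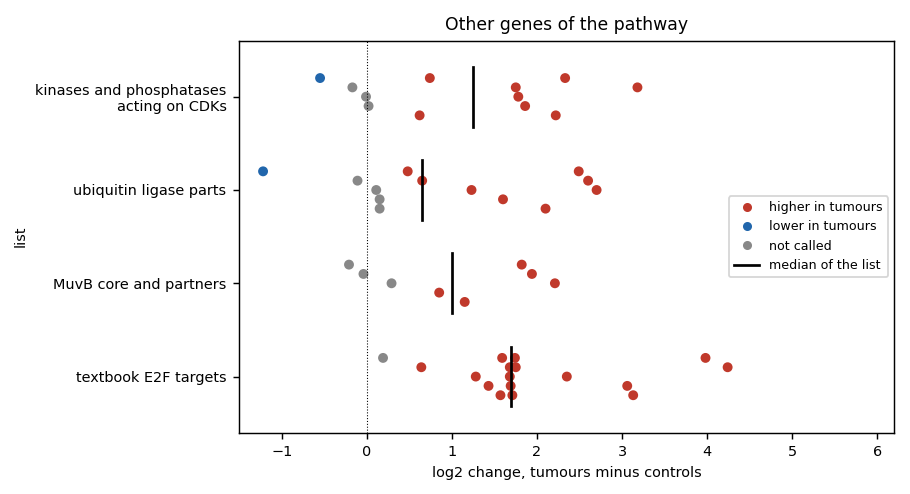
Log2 change, tumours minus controls, of each gene of 4 lists of other pathway genes, coloured by call, with a bar at the list's median (1.25, 0.65, 1.00 and 1.69 from top to bottom). Points sit mostly right of 0 in every list, and the 17 E2F targets hold no gene called lower.

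Array medians lay between 6.33 and 6.44. Of the 5 hepatocyte markers measured, all were lower in tumours, by 0.33 for Ttr to 1.03 for Apob. The list's mean was 12.71 to 12.87 in controls and 11.99 to 12.44 in tumours. The highest value of any gene or probe set on an array was 13.41 to 13.56. How far values so near the top of the scale can still move was not tested. None of 6 T and NK cell markers was called (list mean 5.70 to 6.05 and 5.70 to 5.93), nor any of 4 erythroid markers (6.5 to 6.72 and 6.30 to 6.64). Of 5 B and plasma cell markers 1 was lower (5.23 to 5.48 and 5.14 to 5.33), and of 5 bile duct markers 1 was higher and 1 lower (6.11 to 6.2 and 6.10 to 6.43). Macrophage markers had 2 of 7 higher and 2 lower (7.5 to 8.29 and 7.29 to 7.88), with Cd68 up by 2.11 and Vsig4 changed by -2.38. Sinusoidal endothelial markers had 4 of 6 lower (7.4 to 7.99 and 6.29 to 6.65) and stellate cell and fibroblast markers 1 of 8 higher and 3 lower (7.42 to 7.67 and 6.83 to 7.25). Both group means were at or under the background level for 4 T and NK, 3 B and plasma and 2 bile duct markers. The same held for 1 erythroid and 1 stellate cell and fibroblast marker. The B and plasma marker called lower and the bile duct marker called higher were among them, so neither was shown to be above background. The part of these cell types in the changes of the cell cycle genes was not tested, and in such whole-tissue RNA fewer cells of a type and less RNA per cell cannot be told apart.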

How the data were processed

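RNA of 8 mouse liver samples, 4 per group as labelled, was hybridised to Affymetrix Mouse Gene 1.0 ST arrays, 1 per sample. The deposited values are log2 intensities made by the authors with RMA, which corrects background, normalises between arrays and sums probes, in R 3.0.2, per the submitters' processing notes; its other settings are not stated in the labels. RMA compresses low values, so folds of dim genes understate the change, and the number of arrays limits the precision.

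Of 34760 probe sets, 21640 carried 1 gene symbol, 1321 several and 11799 none; 21553 of the 21640 matched a RefSeq gene. Where a gene had several probe sets, that with the highest mean was used, giving 19937 genes. Groups were compared with limma 3.58.1 (lmFit, eBayes, two-sided) in R 4.3.3, without covariates, with Benjamini-Hochberg adjustment over the 19937 genes. In simulated data the fit called 46% of log2 changes of 0.5, 82% of changes of 1, 94% of 2 and 100% of 4. Of 171 calls 10 were false. Only 50 genes were changed at each size, far fewer than were called in these data, so the real shares may differ. Small changes can thus go uncalled. Paired genes were compared by exact permutation in Python 3.11.15.

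The members, lists and tests were chosen with earlier results of these data known. Values on every array are given, in each role, for up to 3 called genes with the largest change, the largest in the less frequent direction, and a panel of well-known genes; pathway genes were named by the same rule without the panel. Skp2, Cd68 and Vsig4 were named after their values were seen. Alternatives were quantile normalisation, centring by array medians, leaving out the dimmest 33.3% of genes by mean value, array weights, an eBayes fit with an intensity trend and robust variance, averaged probe sets per gene, a replicate block, symbols as annotated, a test against a 1.5-fold change, and leaving out each array. Counting only genes above background, and requiring every probe set to be called, were chosen after seeing the data.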

Additional observations from a re-analysis of the deposited data

Results flagged for a closer look

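In 9 of 132 groups of 4 arrays 1 array stood apart from the others by Dixon's test, where chance flags about 1 in 20. Among genes higher in tumours, Ccna2 was 9.44 in tumour 2 against 9.91 to 9.98 in the other tumours, and Ccnd3 was 7.45 in tumour 1 against 7.56 to 7.58. Cdk8 was 9.54 in control 4 against 9.87 to 9.91 in the other controls, and Ccnf was 5.18 in control 1 against 5.63 to 5.72. Cdk17, lower in tumours, was 7.54 in control 4 against 7.82 to 7.84. Among genes not called, Cdkn2c was 6.90 in tumour 3 against 6.51 to 6.55, Cdk13 was 9.08 in control 4 against 9.25 to 9.26, Ccno was 6.00 in control 2 against 5.74 to 5.78, and Cdc25b was 6.24 in tumour 2 against 6.32 to 6.34. Control 4 was the array set apart for 3 genes and tumour 2 for 2.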

How the results depend on the processing

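Of the 37 called genes, 31 (25 higher and 6 lower) passed the threshold in every other fit except the test against a 1.5-fold change, each gene taken by 1 value per array; Ccnl2, Ccnt1, Cdk2, Cdk12, E2f1 and E2f8 did not, as given above. No called gene changed direction. The 1.5-fold test left 14 genes higher and 0 lower in the set, where limma gave 2 lower at an unadjusted p under 0.05, and 963 higher and 756 lower of all genes. Leaving out 1 array gave 26 to 30 higher and 6 to 7 lower in the set, and 2763 to 3277 higher and 2060 to 2561 lower of all genes. Requiring every probe set to be called, added after seeing the data, left 27 higher and 7 lower, and dropped Cdk7 and E2f3, which are among the 31, as well as Cdk12. With the dimmest 33.3% of genes left out fewer pairs could be compared, and the adjusted p became 0.0514 for Ccne1 and Ccne2 (difference -0.75), Cdk1 and Cdk2 (2.95), Cdk4 and Cdk6 (1.41), Rbl1 and Rbl2 (1.36) and Tfdp1 and Tfdp2 (1.14). Without 1 array the permutation cannot give a p under 0.0571.

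Samples of the same replicate number did not deviate together (correlations -0.0567, 0.00482, 0.0548 and -0.32), so the numbers were not taken to pair them. Between different numbers the correlations ran from -0.216 to 0.309. The highest were 0.309 for control 2 with tumour 4 and 0.307 for control 4 with tumour 1. No fit followed such shared deviations. With the replicate block 27 genes of the set were higher and 6 lower, and 2859 and 2148 of all genes. Values near 6.21 are limited by background.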

Other observations

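The 30 genes of the set that were higher averaged 8.66, 8.49, 8.59 and 8.44 in tumours 1 to 4 and 7.28, 7.15, 7.16 and 7.17 in controls 1 to 4. Tumour 1 held the highest tumour value for 13 of them and tumour 4 for 2, while tumour 4 held the lowest for 13. These genes were picked for being higher in tumours, so the step between the groups is not a finding. Cdk4 ranged from 9.41 in tumour 4 to 10.8 in tumour 1. The interquartile range of all values on an array was 2.42, 2.28, 2.36 and 2.09 in tumours 1 to 4. It was 2.15, 2.04, 2.18 and 2.25 in controls 1 to 4. Tumour 1 thus had the widest spread of the tumour arrays and tumour 4 the narrowest. Whether the ranking of the tumours in the 30 genes reflects this spread of whole arrays was not tested.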
